A study of Mus musculus with 4 samples.

Results

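Bhmt and Mat1a, which encode liver enzymes of the methionine cycle, were measured in fetal livers of Stk40 KO and WT mouse embryos, and their mRNAs differed in opposite directions between the genotypes. Bhmt had an intensity of 318 ± 40.6 in Stk40 KO against 1449 ± 146 in WT livers, and Mat1a had 364 ± 21.5 in Stk40 KO against 115 ± 3.28 in WT livers (SD, n = 2 arrays each). The members are the probe sets with Bhmt or Mat1a as their only symbol in the table that the authors made of 2-fold changes, which gave 2 probe sets for 2 genes out of 1345 genes with a name in that table. They were chosen by the Stk40 KO and WT intensities of these same 4 arrays, so those values are a description and carry no test. The Stk40 KO group holds Stk40-/- embryos and the WT group holds wild type embryos, both at E14.5, on a C57BL/6J background and from matings of heterozygous mice. Stk40 encodes a serine/threonine kinase. Each array was hybridized with RNA pooled from 6 whole livers of 1 genotype, with 2 arrays per genotype, so the values are averages over embryos and over all cell types of the liver. In such RNA, fewer cells of a type and less RNA per cell cannot be told apart.

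The methionine cycle supplies the methyl groups of the cell. Methionine adenosyltransferase, encoded by Mat1a in mature hepatocytes, makes S-adenosylmethionine from methionine, and methyltransferases use it and leave S-adenosylhomocysteine, which is split to homocysteine. Bhmt, betaine-homocysteine S-methyltransferase, returns homocysteine to methionine with a methyl group of betaine, a reaction carried out mainly in liver and kidney. Betaine is made from choline by choline dehydrogenase, encoded by Chdh. Mat2a encodes the methionine adenosyltransferase of most other tissues and of the early fetal liver, and Mat1a takes its place as hepatocytes mature. Bhmt and Mat1a therefore stand at different steps of 1 cycle, the remaking of methionine and its use.

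Bhmt, the member with the larger measured difference, lies on chromosome 13 next to its relative Bhmt2, and Mat1a lies on chromosome 14. The difference of Mat1a is only a bound, so which of the 2 truly differs more is not known. The bases just before the start of Bhmt are shown because this gene had the deepest fall of all probe sets tested. They come from RefSeq (GRCm38.p6, chr13:93637759-93638008, minus strand). Among the windows before gene starts that were at hand, 1 of the 2 genes, Bhmt, had an entry. Capitals mark AGGTCA, the core hexamer that many nuclear receptors of the liver bind, which was searched on both strands after the sequence had been seen.
Bhmt, 250 bases before the start: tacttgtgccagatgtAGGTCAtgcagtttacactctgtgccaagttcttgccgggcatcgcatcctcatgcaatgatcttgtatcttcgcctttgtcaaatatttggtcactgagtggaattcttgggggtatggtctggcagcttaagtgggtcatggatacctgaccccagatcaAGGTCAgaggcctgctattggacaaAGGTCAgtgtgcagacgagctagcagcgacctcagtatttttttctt
The window holds 3 copies of AGGTCA, all on the strand of the gene, which begin 234, 72 and 47 bases before the start. Of 32851 windows of the same length before gene starts, 14.0% hold at least 1 copy on either strand, 1.36% at least 2 and 0.131% at least 3. The window of Bhmt2 holds 0. These matches are letters in a sequence, and binding was not measured.

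The arrays differed in brightness, which bears on both genes. Values are intensities in arbitrary linear units, 1 per probe set and array, with no scaling between arrays. The 75th percentile of the positive values was 267 and 263 in Stk40 KO against 206 and 247 in WT, and spiked hybridization controls were brighter by 0.23 on the log2 scale in Stk40 KO, or by 0.07 without WT array 1, the dimmest. Each value is therefore given as deposited and with all arrays set to the same 75th percentile. The noise level was put at an intensity of 143, which 95% of the negative values did not exceed in size. Above it lay 28.0% and 28.5% of the probe sets on the Stk40 KO arrays and 24.1% and 27.1% on the WT arrays. The 3' to 5' signal ratio of Gapdh, a sign of RNA quality, was 1.18 and 1.33 in Stk40 KO against 1.27 and 1.39 in WT, so that the genotypes overlap. Stk40 itself had intensities of -98.9 and -111 in Stk40 KO against 59.9 and 52.2 in WT, none of them above the noise level, and the place of its probe set relative to the deletion was not examined. Of 29 markers of hepatocytes, erythroid cells and megakaryocytes, 0 are the only symbol of a probe set in the authors' table of 2-fold changes. Their values could not be looked up, so the labelled tissue could not be checked against them.

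Bhmt was read by probe set 1450624_at. As deposited, its intensity was 347 and 289 on the Stk40 KO arrays 1 and 2, against 1346 and 1552 for WT arrays 1 and 2. Both Stk40 KO arrays lie well below both WT arrays, and all 4 values exceed the noise level. The ratio of means was 4.56-fold lower in Stk40 KO, and the 4 ratios of a WT to a Stk40 KO array ran between 3.88 and 5.36. With equal 75th percentiles the intensities were 318 and 269 in Stk40 KO against 1600 and 1535 in WT. The difference was then wider, 5.35-fold lower in Stk40 KO (293 ± 34.6 against 1568 ± 45.7, SD, n = 2), since scaling dims the Stk40 KO arrays and brightens WT array 1. The rank of the probe set on an array does not depend on scaling. Among 45037 probe sets other than controls, Bhmt ranked 7130 and 8291 on the Stk40 KO arrays, in the top 15.8% and 18.4%, against 1400 and 1529 on the WT arrays, in the top 3.11% and 3.39%. In Stk40 KO the transcript was still above the noise level, but no longer among the brightest.

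Mat1a was read by probe set 1423147_at. As deposited, its intensity was 379 and 349 on the Stk40 KO arrays 1 and 2, against 112 and 117 for WT arrays 1 and 2. Mat1a was above the noise level on both Stk40 KO arrays and under it on both WT arrays, so its WT level is only a bound. Against the noise level Mat1a was at least 2.55-fold higher in Stk40 KO as deposited and at least 2.35-fold higher with equal 75th percentiles (means of log2 values, each WT value raised to the noise level). The measured means gave ratios of 3.18 and 2.70. With equal 75th percentiles the intensities were 348 and 324 in Stk40 KO against 134 and 116 in WT. By rank, Mat1a stood in the top 14.8% and 16.0% of probe sets on the Stk40 KO arrays against the top 27.8% and 30.1% on the WT arrays. The ranks of the genotypes do not overlap for either gene, and they moved in opposite directions. Both genes were named for a 2-fold change on these same arrays, and the share of all probe sets without overlap was not counted. The WT ranks of Mat1a are those of values under the noise level.

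**Figure D1:**
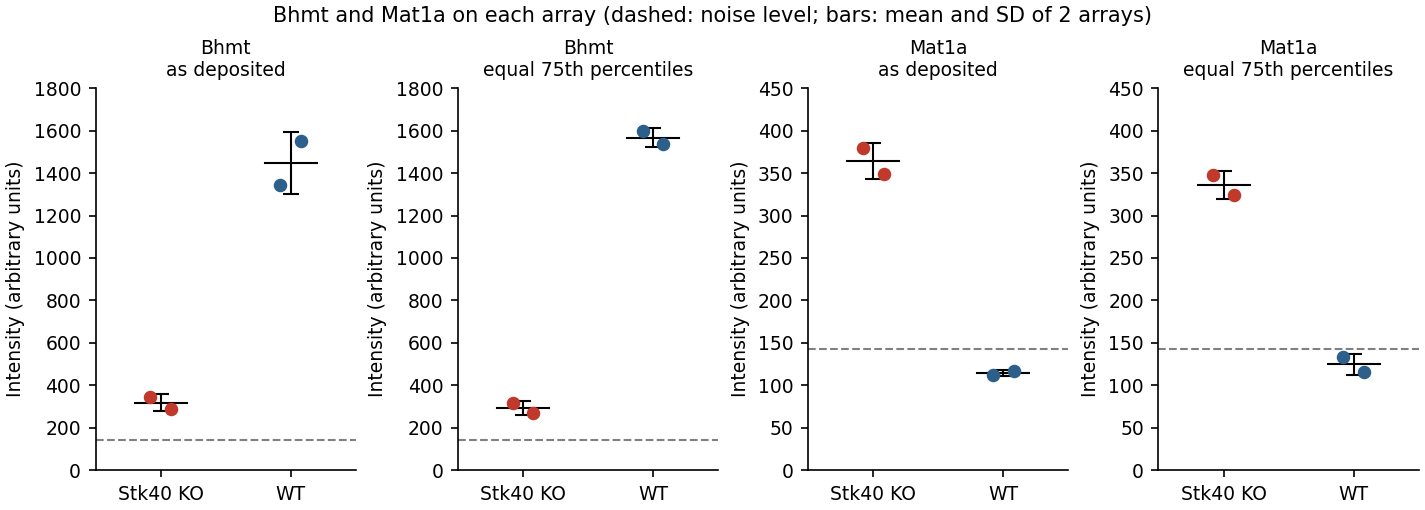
Intensity (arbitrary units, linear axis from 0) of Bhmt and of Mat1a on each Stk40 KO array (red) and WT array (blue), as deposited and at equal 75th percentiles, with the mean and SD of 2 arrays in black and the noise level dashed. Bhmt lies at 289 to 347 in Stk40 KO and 1346 to 1552 in WT as deposited, and Mat1a at 349 to 379 in Stk40 KO and at 112 to 117, under the noise level, in WT.

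The change of Bhmt against Mat1a within an array is free of the scaling factor. The log2 intensity of Bhmt minus that of Mat1a was -0.13 and -0.27 in Stk40 KO against 3.58 and 3.73 in WT, where Mat1a is under the noise level. Only the change between arrays can be read from these differences, because the signal of 1 probe set is not comparable with that of another. The measured change, which uses the WT values of Mat1a under the noise level, was -3.86 on the log2 scale. Scaling by 1 factor per array leaves this measured change as it is. With the arrays scaled and Mat1a raised to the noise level on the WT arrays, the change was -3.66. That value is a lower bound of its size for the scaled arrays only, since raising Mat1a to the noise level makes it depend on the scaling.

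The place of both genes among all probe sets tested is given as a description. Of 12319 probe sets above the noise level on at least 2 arrays, Bhmt had the largest fall (log2 difference -2.42 with equal 75th percentiles), and the next largest was -1.80. Its fall was also the largest among 12600 probe sets as deposited (-2.19, the next being -1.56). Mat1a ranked 17 among the rises with equal 75th percentiles (1.23) and 19 as deposited (1.35). The median over all tested probe sets was -0.04 with equal 75th percentiles and 0.18 as deposited. Changes of at least 2-fold were few on this scale, with 24 rises and 5 falls at equal 75th percentiles and 40 rises and 3 falls as deposited. When 2-fold ratios of linear genotype means were counted here, with no test, 2.49% of 32833 probe sets were higher and 2.22% lower in Stk40 KO at equal 75th percentiles, and 3.80% and 1.57% as deposited. The 32833 leave out controls and probe sets that were negative on all arrays or of opposite sign within a genotype. As deposited, both genes met the 2-fold rule because the table they were taken from required it.

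**Figure D2:**
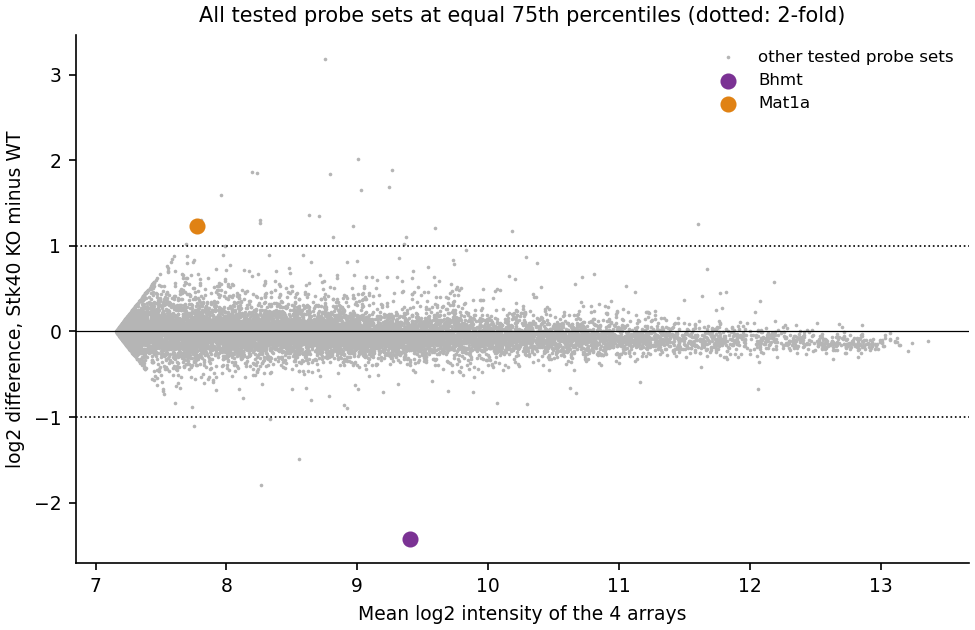
Log2 difference (Stk40 KO minus WT) against the mean log2 intensity of the 4 arrays for each tested probe set (grey points), with Bhmt in purple and Mat1a in orange and dotted lines at a 2-fold change. Bhmt is the lowest point, at -2.42, and Mat1a lies at 1.23 among the dimmer probe sets, where values raised to the noise level narrow the spread.

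The spread between replicates was set, as a description, beside that of the 500 tested probe sets nearest in mean log2 intensity, at equal 75th percentiles. For Bhmt the replicates differed by 0.24 on the log2 scale in Stk40 KO, more than 85.2% of these probe sets (median 0.11), and by 0.06 in WT, where the median was 0.07. For Mat1a they differed by 0.10 in Stk40 KO (median 0.10) and by 0.21 in WT (median 0.16). In both scalings the WT gap of Mat1a lies between measured values under the noise level, not raised to it. As deposited, the gaps of Bhmt were 0.26 in Stk40 KO and 0.21 in WT, and those of Mat1a 0.12 in Stk40 KO and 0.06 in WT, so for Mat1a the genotype with the wider gap changes with scaling. In both scalings the gaps were smaller than the difference between genotypes. When each array was left out in turn, the log2 difference of Bhmt stayed between -2.54 and -2.30 and that of Mat1a between 1.18 and 1.28. For Mat1a, leaving out a WT array could not move the value, since for the log2 difference both WT values were raised to the same noise level.

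**Figure D3:**
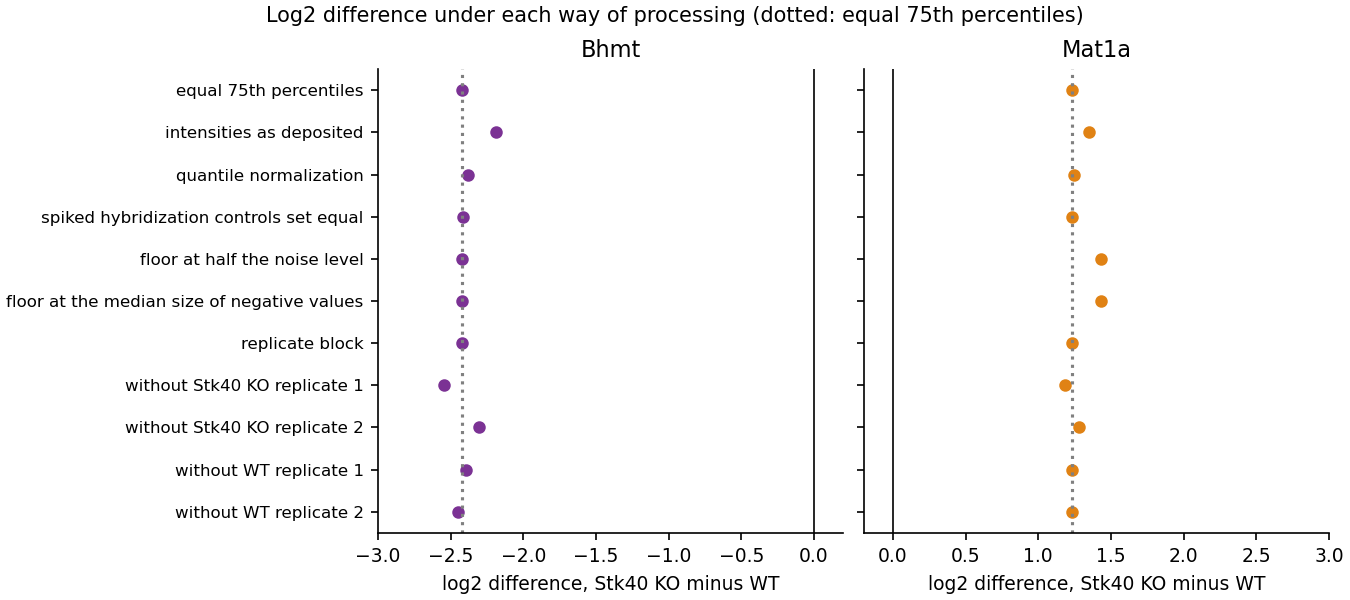
Log2 difference (Stk40 KO minus WT) of Bhmt (left) and Mat1a (right) under each way of processing, with the value at equal 75th percentiles dotted and 0 as a solid line. Bhmt lies between -2.54 and -2.19 and Mat1a between 1.18 and 1.43, where values that rest on WT signals raised to the noise level are lower bounds.

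Other enzymes around the cycle could be looked up only where the authors' table names them. Of 61 genes in 6 lists (the methionine cycle, methyltransferases, transsulfuration and glutathione, choline and betaine, the folate cycle, and methionine salvage with polyamines), 5 are named, Bhmt and Mat1a among them. The remaining 56 genes have no name here, Mat2a, Bhmt2, Gnmt and Cbs among them. None is the only symbol of a probe set in that table of 2-fold changes, so their values could not be looked up. A gene can be absent through a change under 2-fold, the authors' other filters or a probe set with several symbols. Which of these applies was not examined. Naming required a 2-fold change in these arrays, so the direction of the named genes is not independent of the comparison.
Chdh, the choline dehydrogenase that leads to the betaine used by Bhmt, was the only other named gene of these lists bright enough to pass the filter on low values. Its intensity was 240 and 291 in Stk40 KO against 113 and 136 in WT. Both Stk40 KO values exceed the noise level and both WT values lie under it, so that Chdh, like Mat1a, was above the noise level in Stk40 KO alone. Against the noise level Chdh was at least 1.71-fold higher in Stk40 KO at equal 75th percentiles. It passed the filter on low values only through its Stk40 KO arrays and has a name only because it changed 2-fold, so no p-value is given for it. Over all 12319 probe sets, limma with the Benjamini-Hochberg procedure called 1.21% higher and 0.674% lower in Stk40 KO (149 and 83), against 2.25% and 0.0873% as deposited (284 and 11). It called 0 without any 1 of the 4 arrays (391 to 795 higher and 593 to 1105 lower at an unadjusted p under 0.05). The probe set of Chdh is of a kind that can read more than 1 transcript.
Pemt, which makes phosphatidylcholine with methyl groups of S-adenosylmethionine, had intensities of 75.7 and 102 in Stk40 KO against 39.1 and 38.3 in WT. Ahcyl2, a relative of the hydrolase that splits S-adenosylhomocysteine, had 9.55 and 6.09 in Stk40 KO against 32.4 and 19.5 in WT. For both genes all values lie under the noise level, so neither a fold nor a test is given.

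**Figure D4:**
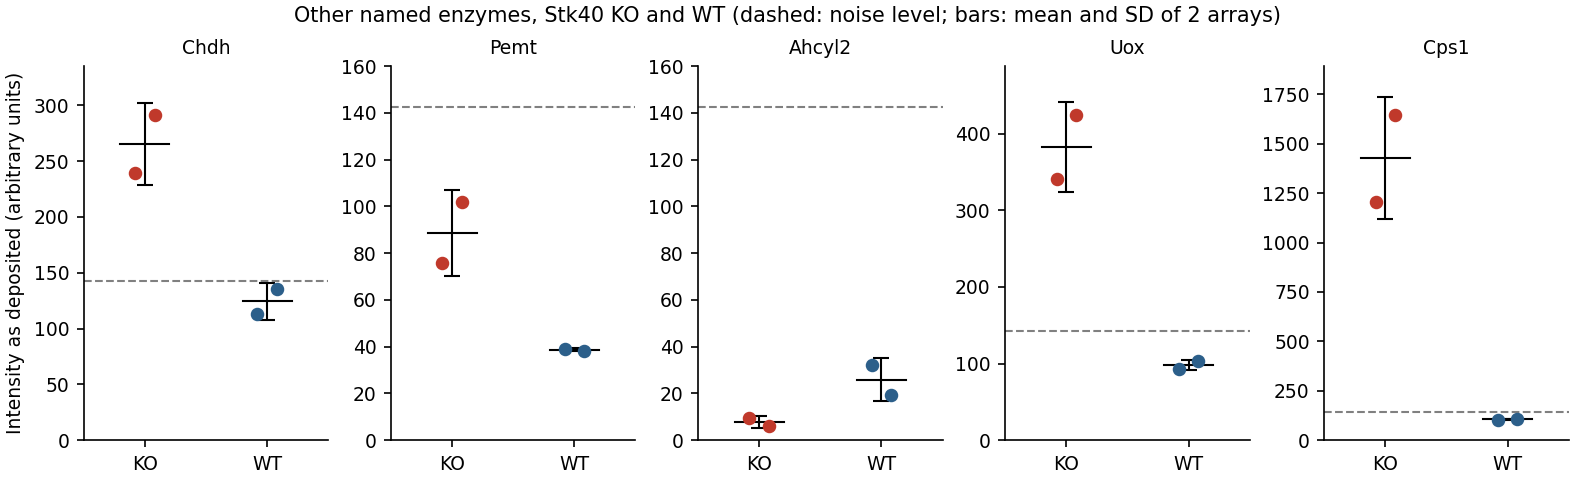
Intensity as deposited (arbitrary units, each panel with its own linear axis from 0) of Chdh, Pemt, Ahcyl2, Uox and Cps1 on the Stk40 KO arrays (red) and WT arrays (blue), with the mean and SD of 2 arrays in black and the noise level dashed. Chdh, Uox and Cps1 lie above the noise level in Stk40 KO and under it in WT, and Pemt and Ahcyl2 lie under it on all arrays.

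Mat1a belongs to the enzymes that the liver raises late in gestation and around birth, and of 17 other such genes 4 are named. Cps1, of the urea cycle, had 1208 and 1646 in Stk40 KO against 103 and 108 in WT, and Uox, the urate oxidase, 341 and 424 against 93.0 and 103. Cyp3a11, which oxidizes drugs and steroids, had 654 and 585 in Stk40 KO against 148 and 140.5 in WT. The direction of Bhmt, which is also an enzyme of mature liver, was opposite to that of these 3 genes and of Mat1a. In WT these 3 genes lay near or under the noise level, and naming required a 2-fold change. They could therefore be read only as rises. G6pc, a gluconeogenesis enzyme, lay near 0 on all arrays. Named genes of neutrophils also differed between the genotypes, having been named for a 2-fold change. Of 10 such markers 4 are named (Ngp, Camp, Ltf and Lcn2), with a summed intensity of 4138 to 5820 in Stk40 KO against 1712 to 1765 in WT, and of 10 macrophage markers 2 are named, Marco and Cd163, which summed to 79.8 to 107 against 21.7 to 32.4, with every value under the noise level. The part of the cell composition in the values of Bhmt and Mat1a was not tested.

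The named genes with the pattern most like each member were found by the root mean square difference of the 4 log2 values, each centred on its own mean, among 75 other tested probe sets with a name. Nearest to Bhmt was Ddx6, an RNA helicase of mRNA decay, at 0.48, with intensities of 254 and 235 in Stk40 KO against 574 and 590 in WT. Fabp2, a fatty acid-binding protein, followed at 0.85, and Pqlc1 at 0.92, both lower in Stk40 KO. The next were Rnf219 at 1.26 and Pon1 at 1.27, neither of which was lower in Stk40 KO, so that only 3 named genes shared the direction of Bhmt among its nearest 5. Mat1a had closer neighbours. Cap1, an actin-binding protein, lay at 0.15 from it, Uox at 0.16, Ptn, a secreted growth factor, at 0.18, Lyz2, the lysozyme of myeloid cells, at 0.19, and Scd1, a fatty acid desaturase, at 0.19. Cap1 had 634 and 746 in Stk40 KO against 200.5 and 258 in WT, and Lyz2 had 1818 and 1854 against 781 and 930. With 4 arrays in 2 groups, likeness of this kind reflects little beyond a similar size of difference between the genotypes.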

How the data were processed

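RNA of fetal livers was read on Affymetrix mouse arrays with 45101 probe sets. The deposited values are linear intensities, and the submitters' processing notes name MAS5, whose version is not given in the sources used here. Arrays were not scaled, and values below 0 are present, as when a mismatch signal exceeds the matched one. They make up 21.0% to 23.2% of the probe sets other than controls on each array. The name MAS5 alone therefore does not say how the deposited values were made. Gene names were read from a second deposited table, which lists 1467 probe sets that changed 2-fold, of which 49 with several symbols were not named. Its 4 intensity columns equal the value table with values under 0.1 raised to 0.1. Its means and folds were not used. Of 1345 symbols, 1062 were current in GRCm38.p6 and 135 matched by a synonym.

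Arrays were scaled to equal 75th percentiles of their positive values, values under the noise level were raised to it, and log2 intensities were tested with limma (version 3.58.1, R 4.3.3; lmFit, then eBayes with a trend) on probe sets above the noise level on at least 2 arrays, with Benjamini-Hochberg adjustment and a threshold of 0.05. The methods give a Student t-test for the study in general and a fold change of 2 for the arrays. Only 2 arrays per genotype limit the precision. The p-values of limma rest on the spread between these pools, drawn toward that of probe sets of similar intensity. Where both values of a genotype were raised to the noise level, that genotype enters with no spread. The script was checked on simulated data. Members and gene lists were chosen with earlier results of these data known. Named are the members, listed genes of the methionine cycle, listed genes that passed limma or were brightest, Stk40 and the 5 nearest patterns. Alternatives covered scaling, floor, filter, prior variance, a replicate block, leaving out each array and the methods' t-test. Among the named probe sets no other carried Bhmt or Mat1a as its only symbol, so that alternative gave no value. A probe set of these genes that did not change 2-fold would have no name here, so whether another differs could not be seen.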

Additional observations from a re-analysis of the deposited data

How the results depend on the processing

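No alternative turned the direction of Bhmt or Mat1a. The log2 difference of Bhmt (-2.42) was -2.19 on intensities as deposited, and that of Mat1a (1.23) was 1.35 as deposited and 1.43 with the floor at 71.4 (0.5 of the noise level) or at 15.2 (the median size of negative values), since its WT values then enter as measured. Leaving out 1 array gave -2.54 to -2.30 for Bhmt and 1.18 to 1.28 for Mat1a, whose value could move only with a Stk40 KO array. The probe sets called higher and lower (149 and 83) were 284 and 11 as deposited, 243 and 175 with the floor at 71.4, 238 and 160 with the floor at 15.2, 22 and 10 without a filter, 215 and 201 above the noise level on all 4 arrays, 153 and 47 with spiked controls set equal, and 105 and 55 without a trend. Without any 1 array both counts were 0 in limma, where 1 arm holds a lone sample assumed to vary like the other genotype, with 391 to 795 higher and 593 to 1105 lower at an unadjusted p under 0.05. The methods' t-test also called 0 and 0 (459 and 1002 unadjusted). With the replicate number as a block, 778 were higher and 1140 lower, and the values of Bhmt and Mat1a did not move. The numbers are not stated to pair the samples, and the replicate differences of the genotypes correlated at r = 0.24 over 12319 probe sets. The cause of these shifts was not tested. Signal over background limits Mat1a, Chdh, Uox and Cps1 in WT to bounds, and Cyp3a11 is under the noise level on WT array 2 both as deposited and at equal 75th percentiles.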
